A study of Cavia porcellus with 12 samples.

Results

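Keratins are the intermediate filament proteins of epithelial cells, and their filaments are built from pairs of a type I and a type II keratin. In the liver, hepatocytes carry mainly the pair of KRT8 (type II) and KRT18 (type I), whereas the epithelium of bile ducts and ductules carries KRT7 (type II) and KRT19 (type I) as well. KRT20 and KRT23 are further type I keratins, of which KRT20 is best known from gut epithelium and urothelium. Of these 6 symbols, the 5 keratins KRT7, KRT8, KRT18, KRT19 and KRT23 were rows among the 11896 human symbols of the deposited expression table, and KRT20 was not analysed here. All 5 are described below, taken by name, with no threshold on their values.

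The samples were livers of female Dunkin Hartley guinea pigs, 10 weeks old at arrival, which after 1 week of acclimatisation ate chow or a high-fat diet with added sucrose and cholesterol for 25 weeks. The chow group consisted of 6 healthy controls picked at random, and the other of 6 animals with nonalcoholic steatohepatitis (NASH), picked from the high-fat group because their livers had bridging fibrosis, so that milder disease is not represented. Each animal gave 1 piece of the left lateral lobe, from a liver that had not been perfused, and 1 library of stranded mRNA reads. The question was how the livers with NASH differ from those of controls, here for the epithelial keratins.

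The counts of a library ran from 16980274 to 28636467 in controls and from 23704607 to 33091460 in NASH. Values are given as CPM, that is, counts relative to library size after scaling with edgeR's TMM factors (0.804 to 0.875 in controls, 1.12 to 1.24 in NASH). Over all genes, edgeR's test at an adjusted p under 0.05 found 27.9% higher and 26% lower in NASH. Without overlap between the 6 animals of each group, 18.4% of genes lay higher and 15.3% lower in NASH. With library size alone in place of TMM, the median over all genes shifted from 0.00 to 0.48 on the log2 scale, and 7603 genes instead of 3318 were higher and 911 instead of 3093 lower. The hepatocyte markers that define the tissue were abundant in every library, with a summed level of at least 50782 CPM.

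The 5 keratins were higher in NASH, and in each of them every animal with NASH lay above every control, a position that 18.4% of all genes shared. KRT23 entered the table through the NASH group alone, so that only the other 4 can be read against this share. Read counts cannot tell more cells of a type from more RNA per cell, which holds for every value that follows. The rise was 2.51-fold for KRT8, 2.44-fold for KRT18, 3.13-fold for KRT19 and 8.54-fold for KRT7. KRT23 had no read in any control. KRT7, KRT8, KRT18 and KRT19 all passed edgeR's test, which found 27.9% of all genes higher. Library size alone moved these changes upward together with all genes, and no alternative turned the direction of a keratin.

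KRT8, the type II keratin of the hepatocyte pair, had levels of 9.49, 9.82 and 11.2 CPM (lowest, median and highest animal) in controls. In NASH the levels were 21.2, 25.1 and 29.1 CPM. The groups lay well apart, and the controls lay close together. The group means of KRT8 were 9.99 ± 0.649 and 25.1 ± 3.23 CPM (SD, n = 6 each), and edgeR gave a log2 change of 1.33 ± 0.09 (SE) with an adjusted p of 2.51e-07.

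KRT18, the type I partner of KRT8, had levels of 55.4, 74.1 and 88.5 CPM (lowest, median and highest) in controls and of 146, 170.2 and 208 CPM in NASH. The group means were 72.1 ± 10.9 and 176 ± 23.7 CPM (SD, n = 6 each), and the log2 change by edgeR was 1.29 ± 0.12 (SE) with an adjusted p of 1.88e-06. Both partners therefore rose by similar amounts, and their ratio is tested further below.

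The symbols KRT8 and KRT18 each stood on more than 1 row of the table, and the further rows carry a number after the symbol (KRT8.1, KRT8.2 and KRT18.1). The orthologue search of the study gave these loci the same human symbol, and the files do not say which of them is the guinea pig gene itself and which is a copy. The row called KRT8 was not the largest. In controls KRT8.1 had levels of 186, 201 and 234 CPM (lowest, median and highest), and in NASH of 423, 509 and 616 CPM. Its means of 206 ± 18.2 and 519 ± 69.6 CPM (SD, n = 6 each) corresponded to a log2 change of 1.33 ± 0.10 (SE) and an adjusted p of 3.93e-07 in edgeR.

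KRT18.1 was at 71.0, 92.6 and 109 CPM (lowest, median and highest) in controls and at 184, 209 and 255 CPM in NASH, again without overlap. Its log2 change was 1.25 ± 0.12 (SE) with an adjusted p of 2.19e-06 in edgeR. KRT8.2 behaved differently, with 5.87, 12.8 and 19.9 CPM in controls and 15.4, 36.1 and 47.9 CPM in NASH. The animal NASH 2, which was at or near the top for the other rows, had the lowest KRT8.2 value of its group and lay below 3 controls. The log2 change of KRT8.2 was 1.4 ± 0.34 (SE) with an adjusted p of 0.00359 in edgeR.

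**Figure D1:**
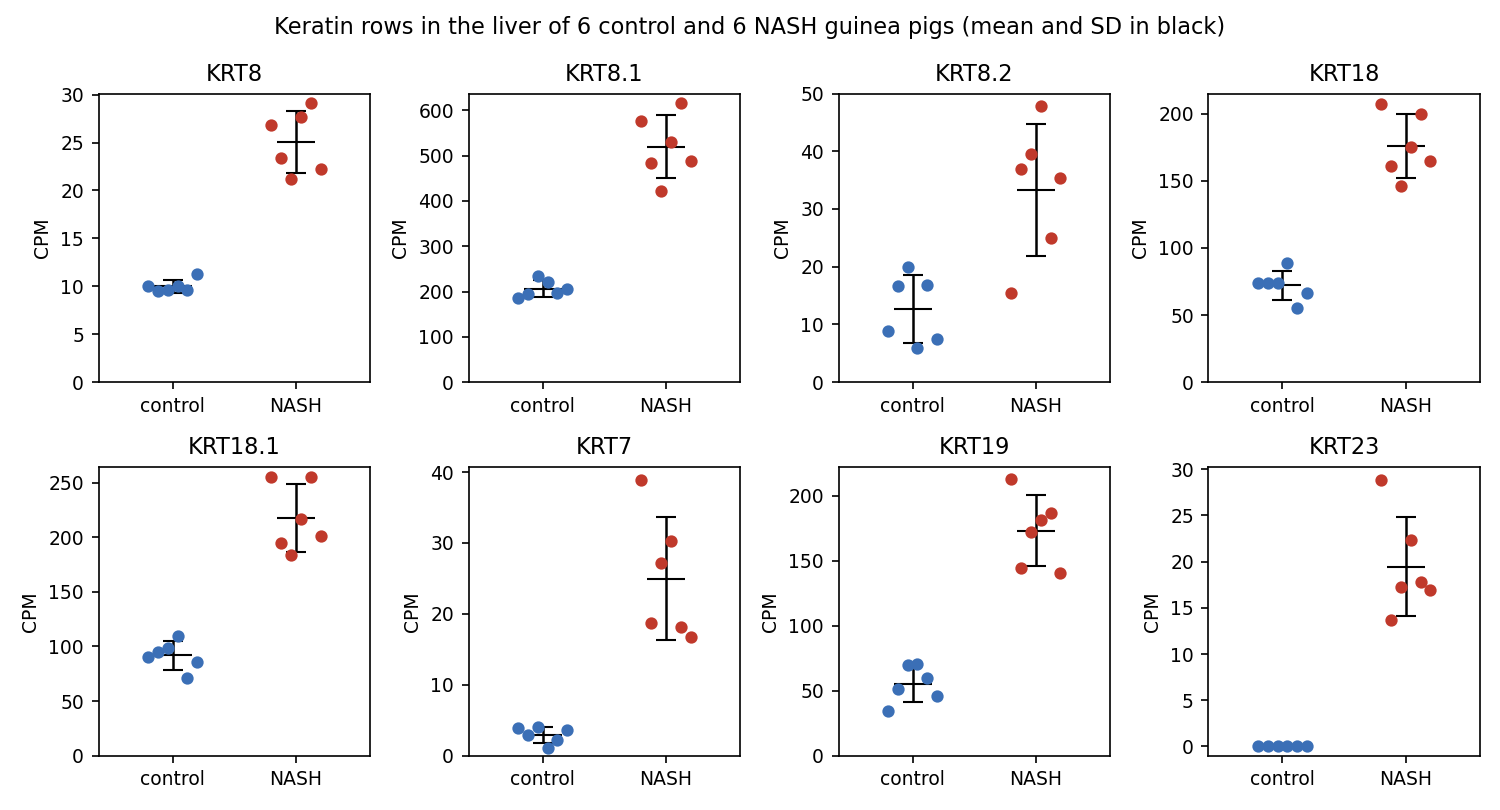
CPM (TMM-scaled, linear axes) of each keratin row in each animal, with controls in blue, NASH in red and the mean and SD of 6 animals in black. All rows but KRT8.2 are without overlap, and KRT23 is at 0 in all 6 controls.

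Reads of KRT18 and KRT18.1 kept a nearly fixed proportion in all animals. For every 100 reads on KRT18.1 there were between 75.0 and 83.0 reads on KRT18, with means of 78.6 ± 2.59 for controls and 80.9 ± 1.68 for NASH (SD, n = 6 per group). KRT8 likewise had between 4.10 and 5.45 reads for every 100 on KRT8.1, with means of 4.87 ± 0.512 in controls and 4.84 ± 0.253 in NASH (SD, n = 6 each). For KRT8.2 the number ran from 2.65 to 9.34 per 100 reads on KRT8.1, so this row did not keep pace with the other row animal by animal. Reads that mapped to several places had been left out by the authors. How alike these rows are in sequence and how reads were divided between them was not tested, so the levels of single KRT8 and KRT18 rows are uncertain. With their rows added together, KRT8 came to 229 ± 19.8 CPM in controls and 578 ± 66.2 CPM in NASH (SD, n = 6 each), and KRT18 to 164 ± 23.6 and 394 ± 54.4 CPM (SD, n = 6 each).

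**Figure D2:**
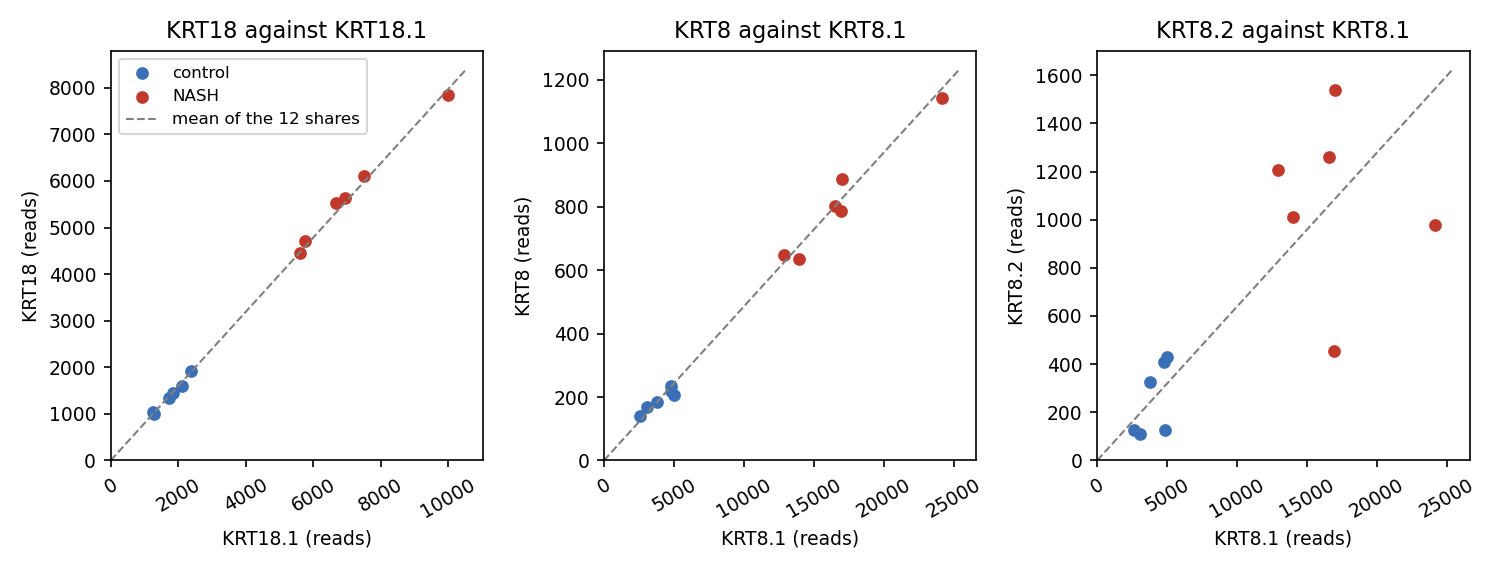
Reads per animal on rows that carry the same symbol, with controls in blue, NASH in red and a dashed line at the mean proportion of the 12 animals. KRT18 follows KRT18.1 and KRT8 follows KRT8.1 along a line, whereas KRT8.2 scatters between 2.65 and 9.34 reads per 100 on KRT8.1.

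The loci of the count table are numbered, and for 96.7% of 9058 pairs of successive loci at most 10 numbers apart, the 2 genes lay within 20 places of each other in the RefSeq gene order of another guinea pig assembly (mCavPor4.1). KRT18.1, KRT8.1, KRT7 and KRT80 stood on loci 6312, 6314, 6319 and 6320. In the RefSeq order Krt80 and Krt7 hold places 13178 and 13180, and Krt8 and Krt18 hold places 13211 and 13212, so that each pair is close but the pairs lie more than 20 places apart. The rows called KRT18, KRT8.2 and KRT8 stood apart on loci 1848, 7937 and 10348. KRT23 and KRT19 stood on loci 19361 and 19363, while Krt23 and Krt19 hold places 10136 and 10188 in the RefSeq order, again more than 20 apart. The assembly of the count table differs from that of RefSeq, and no coordinates are given.

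KRT19, the type I keratin of bile duct epithelium, had levels of 34.7, 55.5 and 70.5 CPM (lowest, median and highest) in controls and of 141, 177 and 213 CPM in NASH. Every animal with NASH lay far above the highest control. The means were 55.4 ± 14.0 and 173 ± 27.4 CPM (SD, n = 6 each), and edgeR put the log2 change at 1.64 ± 0.17 (SE) with an adjusted p of 5.87e-06. Controls spread more widely in KRT19 than in KRT8, with 2.03-fold between the highest (control 32) and the lowest (control 5), compared to 1.18-fold for KRT8.

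KRT7, the type II keratin of bile duct epithelium, was scarce in controls, with 1.10, 3.25 and 4.0 CPM (lowest, median and highest), from between 24 and 86 reads. In NASH the levels were 16.8, 22.9 and 38.8 CPM, from between 480 and 1142 reads. No animal with NASH came near the controls, although both groups spread widely, by 3.64-fold in controls and 2.31-fold in NASH. The means of KRT7 were 2.96 ± 1.13 and 25.0 ± 8.69 CPM (SD, n = 6 each), and the log2 change was 3.09 ± 0.31 (SE) with an adjusted p of 4.80e-06 in edgeR.

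KRT23 had 0 reads in each of the 6 controls, which allows a level of up to 0.214 CPM in control 5, the control with the highest such limit (3 reads, counting error only). In NASH it had between 470 and 847 reads, and levels of 13.7, 17.5 and 28.8 CPM (lowest, median and highest). The mean in NASH was 19.5 ± 5.35 CPM (SD, n = 6), at least 90.8-fold higher than this limit. The study singled KRT23 out for its rise in these same animals, so no test is given for it here. The row entered the table, which asked for 200 reads over all 12 animals, through the NASH group alone.

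The deposited rlog values give smaller differences, and the order of KRT8 and KRT18 turns on that scale. Rlog is a log2-like scale on which low counts are drawn towards the mean of the gene. For KRT23 the rlog values of controls were between 5.44 and 5.54 although no read was counted, and those of NASH were between 7.68 and 8.38. The difference of the means was 2.50 on the rlog scale for KRT23, 1.58 for KRT7 and 1.06 for KRT19. For KRT8 it was 0.74 and for KRT18 0.82. The edgeR log2 fold changes of these last 2 rows were 1.33 and 1.29, so rlog differences understate the change of every keratin, and a rlog value above 0 does not show that a gene was detected.

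**Figure D3:**
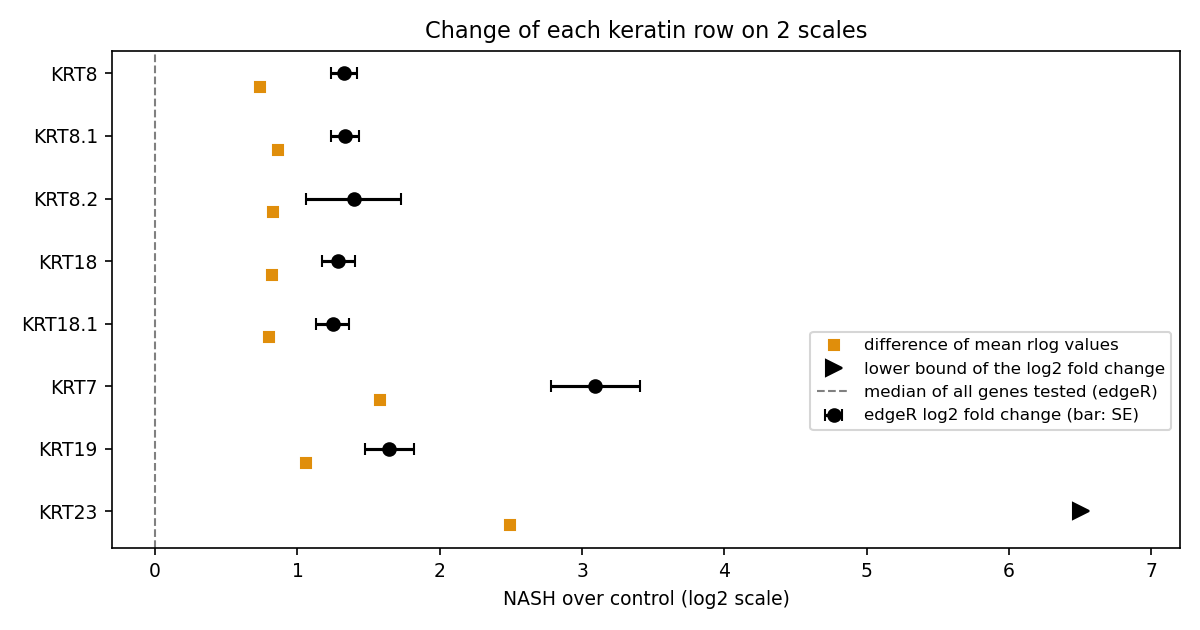
Change of each keratin row between NASH and control on the log2 scale, as edgeR's log2 fold change with its SE (black) and as the difference of mean rlog values (orange squares). KRT23 is drawn at its lower bound of 90.8-fold (triangle), and the dashed line marks the median of all genes.

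To ask whether the keratins differed from each other in their change, the log2 ratio of the counts of each pair was formed within each animal, which takes out the library scaling. Levels of different keratins were not compared, since the lengths of their transcripts were not at hand. Of the 10 pairs, the 4 that contain KRT23 have a count of 0 in every control and are left without a test in the text. P-values are given adjusted over all 10 pairs, and then over the 6 pairs without KRT23, since the 4 others lower the first (a family added after the data were seen). KRT7 rose more than KRT8, by 1.77 (SE 0.34) on the log2 scale, more than KRT18, by 1.79 (SE 0.37), and more than KRT19, by 1.41 (SE 0.42). On the rlog scale, which compresses low counts, these differences were 0.84, 0.75 and 0.52. The adjusted p of these 3 pairs was 0.00361, 0.00361 and 0.00618 over 10 pairs, and 0.00649, 0.00649 and 0.00866 over 6 (two-sided exact permutation test, n = 6 per group, in which the smallest p possible before adjustment is 0.00216). For KRT7 over KRT8 and KRT7 over KRT18 no animal with NASH overlapped a control, whereas KRT7 over KRT19 overlapped.

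Between KRT8 and KRT18 no difference in change was found, which does not show that their changes were equal. The log2 ratio of KRT8 to KRT18 averaged −2.83 ± 0.24 for controls and −2.81 ± 0.10 for NASH (SD, n = 6 per group), a difference of 0.02 (SE 0.11, two-sided exact permutation test, adjusted p = 0.861). A difference of that size is far within the spread between animals. With KRT8.1 and KRT18.1 in place of these rows the difference was 0.08 (adjusted p = 0.323, exact permutation test). The ratio itself then averaged 1.18 ± 0.18 for controls and 1.25 ± 0.05 for NASH (SD, n = 6 per group). With the rows of each symbol summed it averaged 0.49 for controls and 0.56 for NASH. Its sign thus depended on the rows, and which of the pair was more abundant is not read from it.

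Whether KRT19 rose more than the hepatocyte pair depended on the row and on single animals. On the rows of the bare symbols, KRT19 exceeded KRT8 by 0.36 and KRT18 by 0.38 on the log2 scale, with adjusted p of 0.0962 and 0.0676 over 10 pairs and of 0.104 and 0.0812 over 6 (two-sided exact permutation test). On KRT8.1 and KRT18.1 the excess was 0.35 and 0.43, with adjusted p of 0.0409 and 0.0406 over 10 pairs and of 0.0442 for both over 6 (same exact test, rows chosen after the data were seen). Without control 31 the excess over KRT8 was 0.45 and over KRT18 0.45, with adjusted p of 0.0433 in both over 10 pairs and 0.0468 over 6 by the exact test. Without control 45 the excess over KRT18 was 0.49 (adjusted p = 0.0135 over 10 pairs and 0.0162 over 6, exact permutation test). Without control 5 it fell to 0.24 over KRT8 and 0.25 over KRT18. The adjusted p was then 0.178 and 0.133 over 10 pairs, and 0.192 and 0.159 over 6 (exact permutation test). With the rows of each symbol summed, the adjusted p was 0.0481 for both over 10 pairs and 0.0519 over 6 (exact permutation test), so this call depended on the family.

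Within the group with NASH, the animals kept a partial order across keratins. NASH 2 was highest in KRT7, KRT18, KRT19 and KRT23 and stood behind NASH 41 and NASH 20 in KRT8, whereas NASH 65 was lowest in KRT7 and KRT19. NASH 41 was highest in KRT8 and second in KRT18 and KRT19, but in KRT7 only NASH 65 was lower. NASH 11 was lowest in both KRT8 and KRT18 but was above the median in KRT7. The mean rank over the 5 keratins ran from 1.4 in NASH 2 to 5.2 in NASH 65. From the lowest to the highest animal with NASH, the level rose 1.37-fold for KRT8, 1.42-fold for KRT18, 1.52-fold for KRT19, 2.1-fold for KRT23 and 2.31-fold for KRT7.

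**Figure D4:**
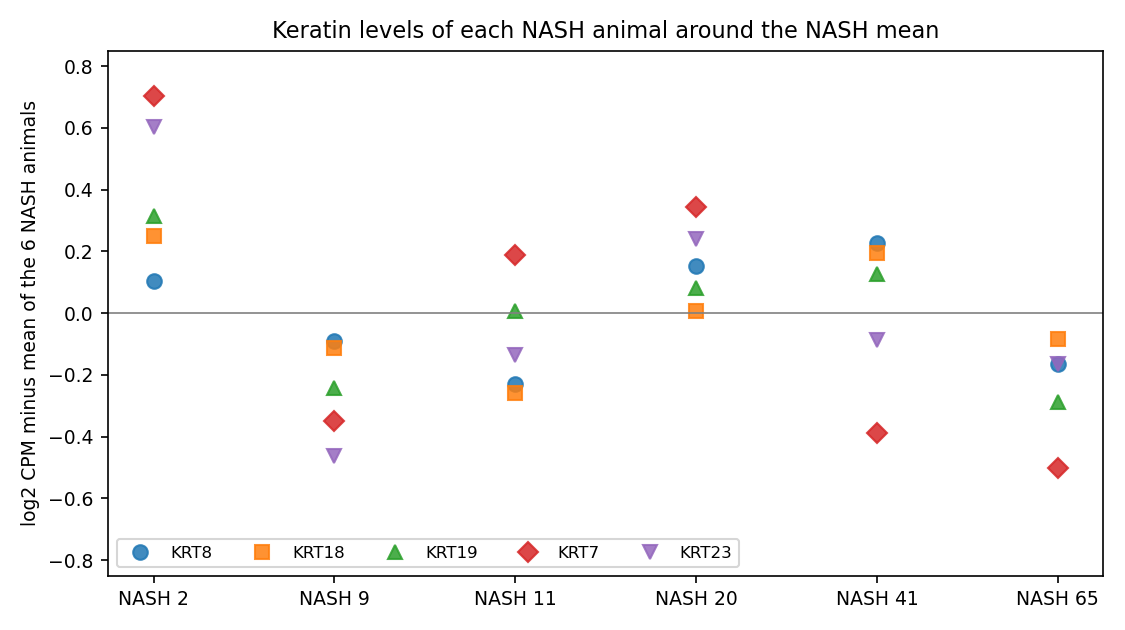
Log2 CPM of 5 keratins in each of the 6 animals with NASH, relative to the mean of that group. NASH 2 is above the mean for all 5, NASH 9 and NASH 65 are below it for all 5, and in NASH 41 KRT7 is low while KRT8 is the highest of the group.

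Relations between keratins were computed within the 6 animals with NASH (10 pairs) and within the 6 controls (6 pairs), because the groups form separate clusters, and none of the 16 passed the threshold after adjustment. In NASH, Pearson's r was 0.861 for KRT8 and KRT18 (exact permutation p = 0.0333, adjusted 0.185), with a Spearman's rho of 0.771 (exact p = 0.103, adjusted 0.400). Without NASH 11 and NASH 41, the animals farthest from the median of KRT8, r was 0.684. For KRT19 and KRT23, r was 0.839 (exact permutation p = 0.0347, adjusted 0.185) and rho 0.886 (exact p = 0.0333, adjusted 0.400), and r was 0.857 without NASH 9 and NASH 65. For KRT7 and KRT23, r was 0.846 (exact permutation p = 0.0236, adjusted 0.185) and rho 0.714 (exact p = 0.136, adjusted 0.400). This last relation rested on NASH 2 and NASH 20, without which r was 0.190. In controls the 6 values of r lay between −0.551 and 0.158.

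Of the genes with at least 1 CPM in NASH, those whose log2 CPM ran most nearly parallel to KRT7 over the 6 animals with NASH included *ITGB6* (r = 0.984), *HMG20B* (0.981), *DCN* (0.980) and *KAZALD1* (0.978). *ITGB6* encodes an integrin subunit of epithelia. For KRT19 the nearest were *C12orf65*, *CUBN* and *SLC34A2* (0.993 each), *DIPK1A* (0.990) and *PGD* (0.985), of which *SLC34A2*, a phosphate transporter of epithelia, had no read in any control. For KRT23 they were *IL34* (0.982), *BST1.1* (0.981), *CUEDC2* (0.981), *RNF122* (0.980) and *UPP1* (0.978). *IL34* encodes a ligand of the macrophage receptor CSF1R. For KRT8 they were *TUBA1B* (0.995), *MOSPD2* (0.990), *TUBA4B* (0.989), *BEND3* (0.984) and *HNRNPAB* (0.984), and for KRT18 its own row KRT18.1 (0.989), then *NOB1* (0.973), *SMPD2* (0.972), *RANGAP1* (0.969) and *TMEM120A* (0.968). Each list is from the top of 11633 genes compared over only 6 animals, between 78 and 115 of which had r of at least 0.9, so it is a description of these animals.

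Of 49 other keratins looked for, only KRT80, a type II keratin of several epithelia, was in the table. It had 5 reads over all controls, in control 31 and control 32, and between 44 and 195 reads in each animal with NASH. The ratio of the summed reads after scaling was 92.2, with a 95% exact interval from 39.4 to 285 that covers counting error only and not the spread between animals. KRT80 entered the table through the NASH group alone, so no test is given for it. KRT80 stands on the locus next to KRT7.

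Among 8 other intermediate filament genes found of 15, 4 were higher in NASH by edgeR's test, 0 lower and 4 not past the threshold, and the median change (log2) was 0.43 against 0.00 for all genes, of which 27.9% were higher and 26% lower. *VIM*, the filament of mesenchymal cells, had the largest value, 1.39 (adjusted p = 1.87e-06 from edgeR). The nuclear lamins *LMNB1* and *LMNA* rose by 0.92 and 0.53, and *NES* had the smallest change, −0.18 (adjusted p = 0.608 from edgeR).

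Keratin filaments are anchored in desmosomes by linker proteins. Of 20 genes of linkers and desmosomes, 9 were in the table, of which 5 were higher, 0 lower and 4 not past the threshold, and the median change (log2) was 0.49. Of the 5, *DSG4* entered the table through the NASH group alone, so its call was fixed, which leaves 4 of 8, next to 27.9% higher and 26% lower over all genes. The desmosomal cadherins *DSG2* and *DSC2* rose by 1.44 and 1.42 (adjusted p = 0.00458 and 3.31e-06 from edgeR). *DSG4*, another of them, had no read in controls and was at least 12.9-fold higher, and *PKP2*, a plaque protein, had the smallest change, 0.13 (adjusted p = 0.281 from edgeR). With library size alone, 8 of the 9 were higher, as were 7603 of all 11896 genes.

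Hepatocyte keratins bind 14-3-3 proteins and chaperones, and they are found together with SQSTM1 in the Mallory-Denk bodies of steatohepatitis. Of 22 genes of such inclusion and stress partners, 15 were in the table, with 4 higher, 3 lower, 8 not past the threshold, and the median change (log2) was −0.06. These shares lay near those over all genes (27.9% higher, 26% lower), and 2 of the 3 lower symbols share a count row. *SFN*, an epithelial 14-3-3 protein whose count row carries a further symbol, rose by 1.80 (adjusted p = 3.93e-07 from edgeR), and *SQSTM1* by 1.35 (adjusted p = 6.68e-05 from edgeR). The heat shock genes *HSPA1A* and *HSPA1B*, which share a count row, fell by 0.91 (adjusted p = 0.000557 from edgeR), and *HSPA8* had the smallest change, 0.04 (adjusted p = 0.863 from edgeR). With library size alone 8 were higher and 2 lower (7603 and 911 of all 11896 genes), and the median of this list turned to 0.42, compared to 0.48 for all genes.

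Of 20 transcription factors of liver and other epithelia, 12 were in the table, with 4 higher, 2 lower and 6 not past the threshold, and the median change (log2) was 0.13. Over all genes 27.9% were higher and 26% lower, and these counts are not read as a result about the factors. *EHF*, an epithelial ETS factor, rose by 2.42 (adjusted p = 1.25e-05 from edgeR) and *KLF6* by 1.96 (adjusted p = 0.000268 from edgeR). *FOXA2*, a factor of hepatocyte and bile duct identity, fell by 1.98 (adjusted p = 0.000501 from edgeR). The smallest change was that of *ONECUT2*, −0.12 (adjusted p = 0.496 from edgeR). With library size alone 7 of the 12 were higher, compared to 7603 of all 11896 genes.

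Markers of bile duct epithelium other than keratins moved in the same direction as KRT7 and KRT19. Of the 21 markers listed, 15 were in the table, of which 12 were higher in NASH, 0 lower and 3 not past the threshold, and the median change (log2) was 2.20, next to 27.9% of all genes higher and 26% lower. Their summed level ran from 390 to 632 CPM in controls and from 746 to 1450 CPM in NASH, and no marker found was at 0 in a whole group. Of the 15, 3 (*PROM1*, *CLDN4* and *CLDN7*) had under 200 reads in controls and so entered the table through the NASH group, which leaves 9 higher of 12. The median of 2.20 includes these 3, and the middle changes of the other 12 were 1.98 (*SPP1*) and 1.25 (*ELF3*). The adhesion molecule *EPCAM* rose by 3.22 and the chloride channel *CFTR* by 3.09 (adjusted p = 1.84e-07 and 1.67e-06 from edgeR), next to 3.09 for KRT7. *ANXA4* had the smallest change, 0.14 (adjusted p = 0.531 from edgeR). The part of this shift in the rise of the keratins was not tested.

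Within the 6 animals with NASH, the mean log2 CPM of the 15 bile duct markers had an r of 0.824 with KRT7 (exact permutation p = 0.0444, adjusted over 5 keratins 0.222) and a rho of 0.771 (exact p = 0.103, adjusted 0.438). Without NASH 20 and NASH 65 this r was 0.863. For KRT19 r was 0.642 (exact permutation p = 0.163, adjusted 0.406), for KRT23 0.567 (p = 0.244, adjusted 0.407), for KRT8 0.312 (p = 0.557, adjusted 0.696) and for KRT18 0.0527 (p = 0.922, adjusted 0.922). The corresponding rho was 0.543, 0.657, 0.200 and 0.0857 (exact p from 0.175 to 0.919), and without the same animals r was 0.510, 0.597, −0.411 and −0.174. None of the 5 passed the threshold after adjustment.

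Hepatocyte markers moved against the hepatocyte keratins. Of 15 such markers, 13 were in the table, with 12 lower in NASH, 0 higher and 1 not past the threshold, and the median change (log2) was −0.83, next to 26% of all genes lower and 27.9% higher. Their summed level ran from 120969 to 154167 CPM in controls and from 50782 to 81629 CPM in NASH. With library size alone 6 were lower and 1 higher, with a median of −0.35, compared to 911 lower and 7603 higher of all 11896 genes. The part of this shift in the values of KRT8 and KRT18 was not tested. Of 9 markers of mesothelium, which also carries these keratins, only *GPM6A* was in the table, with a log2 fold change of −0.57 (adjusted p = 0.405 from edgeR).

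**Figure D5:**
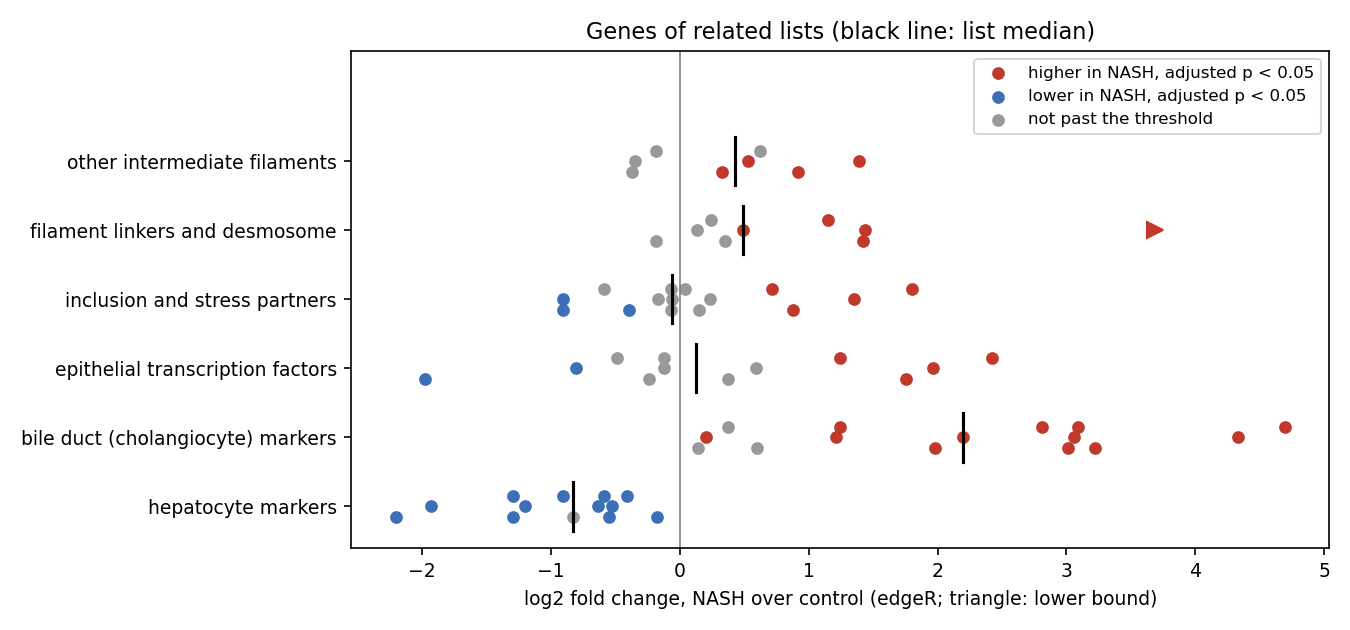
Log2 fold change between NASH and control (edgeR) of each gene found of 6 lists, with genes higher in NASH in red, lower in blue and others in grey. Bile duct markers lie to the right with a median of 2.20, which includes 3 that entered the table through the NASH group. Hepatocyte markers lie to the left with a median of −0.83, and the triangle is the lower bound of *DSG4*.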

How the data were processed

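Liver mRNA of 6 controls and 6 guinea pigs with NASH was analysed, with groups and animal numbers taken from the sample labels. The authors trimmed reads with Trimmomatic 0.38.0, mapped them with HISAT2 2.1.0 to Cavpor3.0, ignored multimapped reads and quantified loci with StringTie 1.3.6. They deposited raw counts for 39061 loci without symbols. They also deposited log2 values (rlog of DESeq2) for 11896 human orthologue symbols with at least 200 counts in all. Symbols were tied to count rows by applying the rlog transformation again to the counts, which gave back all 11896 rows within 8.35e-07. Of these symbols, 1515 share a row with another, but none of the keratins does. The rlog table matched RefSeq symbols (assembly mCavPor4.1) for 86.9%.

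Counts were tested in R 4.3.3 with edgeR 4.0.16 (TMM, robust glmQLFit, glmQLFTest, Benjamini-Hochberg over all 11896 symbols, threshold 0.05). Log2 CPM used a prior count of 2, and count ratios an added 2. A count of 0 was taken to allow 3 counts. Exact permutation tests covered all 924 assignments of 12 animals or 720 pairings of 6. Alternatives were RLE and upper-quartile factors, library size alone, DESeq2 1.42.0, limma-voom and limma 3.58.1 on rlog values, other row filters, a threshold of 0.01 and each animal left out. On simulated data, edgeR recovered 94.5% of 200 genes changed 4-fold among 11031, and 79.5% of those changed 2-fold. Only these 200 genes were changed in the simulation, so it does not cover a shift of as many genes as in these data.

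The keratins and gene lists were chosen with earlier results of these data known. Named genes were the keratins, the 3 genes per related list with the largest change past the threshold and the one with the smallest, and the 5 most parallel genes, of which 1 is not reported here. Marker genes, KRT8.1, KRT8.2, KRT18.1 and the relation to bile duct markers were chosen for the text after values were seen. The labels give no batch.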

Additional observations from a re-analysis of the deposited data

Results flagged for a closer look

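Of 35 sets of 6 animals (CPM of the keratin rows and log2 ratios of keratin pairs in each group), 2 had an animal far from the others by Dixon's criterion, where chance gives about 1 in 20. In KRT8, control 56 was the highest control, and its gap to the next was 0.704 of the range of the controls. In the log2 ratio of KRT7 to KRT18, control 32 was the lowest control, with a gap of 0.781 of the range. This animal had the highest KRT18 and the lowest KRT7 of the controls.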

How the results depend on the processing

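No paired or blocked analysis was possible. The groups hold different animals, and the labels do not give the blocks by body weight in which the study randomised them. The log2 fold changes of the keratin rows other than KRT23 kept their direction and their side of the threshold in all 154 alternative values, with each animal left out among them. KRT23, given without a test, stayed higher in its 22. Over all genes, 7603 were higher and 911 lower with library size alone (median 0.48), 5985 and 4828 with every row that had a count, and 5089 and 4734 with filterByExpr, compared to 3318 and 3093. The last 2 test more rows. With each animal left out, the ratio of KRT8 to KRT18 changed by −0.0416 to 0.0823 on the log2 scale, that of KRT8 to KRT19 by −0.45 to −0.24 and that of KRT18 to KRT19 by −0.49 to −0.25. The ratios of KRT7 to KRT8, KRT18 and KRT19 changed by 1.52 to 1.89, 1.48 to 1.91 and 1.08 to 1.64. Each of these was lowest without control 32, and all kept their side of the threshold. With rlog values KRT8 to KRT18 was −0.0885 and KRT8 to KRT19 −0.33 (past the threshold). With KRT8.1 and KRT18.1 in their place, KRT8 to KRT19 and KRT18 to KRT19 were −0.35 and −0.43, and with summed rows −0.34 and −0.41, all past the threshold over 10 pairs. Over the 6 pairs without KRT23 the summed rows no longer passed (adjusted p = 0.0519 for both, exact permutation test), and no call on the rows of the bare symbols changed. The cause was not tested. With library size alone, the medians of the inclusion and T cell lists turned to 0.42 and 0.38, and r in controls to 0.0582 for KRT8 and KRT18 and to 0.0668 for KRT8 and KRT19. At this depth, a keratin without a read in a control can still be at up to 0.214 CPM.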

Other observations

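Other cell type markers, listed as background to the keratins, were as follows by edgeR's test. Of 6 markers of dividing cells found, all 6 were higher in NASH. Of these, 5 had under 200 reads in controls and entered the table through the NASH group, so their rise is not read as a result. The other, *PLK1*, rose by 0.48 on the log2 scale (adjusted p = 0.00288 from edgeR). Of 5 erythroid markers found, all 5 were higher, but 4 entered in the same way and are not read as a result either. The other, *HBA1*, whose count row carries a further symbol, rose by 3.79 (adjusted p = 0.000258 from edgeR). The summed level of the 5 was between 58.3 and 173 CPM in controls and between 431 and 4560 CPM in NASH. Of 10 stellate cell and fibroblast markers, 8 rose and 1 fell, and the median was 1.5. Of 9 macrophage markers found, 3 were higher and 1 lower, and with library size alone 7 were higher and 1 lower, compared to 7603 and 911 of all 11896 genes. Of 8 endothelial markers 3 were higher and 2 lower. Of 7 T cell markers found 1 was higher and 1 lower, and the higher one, *CD8A*, entered the table through the NASH group. Over all genes 27.9% were higher and 26% lower, and the counts of these last 3 lists are not read as a result about them.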
